A study of Homo sapiens with 2 samples.

Results

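The members of the tumor necrosis factor (TNF) ligand family and of the TNF receptor superfamily were followed in gastric cancer (GC) cells with and without SET7/9 knockdown. SET7/9, encoded by SETD7, is a lysine methyltransferase that mono-methylates H3K4 and other proteins. Members were taken by gene name from the array design: gene probes present in both scanner files and named TNFSF or TNFRSF with a number, or TNF, LTA, LTB, LTBR, CD40, FASLG, EDAR or NGFR. The array carried 40 such genes of 25937 gene symbols, 15 ligands and 25 receptors, on 49 probes.

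The groups were MKN74 and MKN45 cells, both established GC cell lines, each given either SET7/9 siRNA or a negative control siRNA at 50 nM by electroporation and harvested after 48 hrs. Total RNA of each cell line was hybridised to 1 two-colour Agilent array, with the SET7/9 siRNA sample in Cy5 and the control sample in Cy3 on both arrays. Which SET7/9 siRNA was used is not given in the sources used here. There were no replicate cultures and no dye swap, so that within a cell line no test was possible, and the number of arrays limits the precision of every value. In RNA of whole cultures, fewer cells with a transcript and less of it per cell cannot be told apart.

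TNF ligands are mostly trimeric membrane proteins, some of them shed, that cluster receptors on the same or a neighbouring cell. Receptors with a death domain, such as TNFRSF1A, TNFRSF10A and TNFRSF10B, recruit adaptors that lead to caspase activation or to NF-kB, and most others bind TRAF proteins and act mainly through the canonical or the alternative NF-kB pathway. The decoys TNFRSF6B, TNFRSF10C, TNFRSF10D and TNFRSF11B, bind ligand without passing on a full signal. In the stomach wall several ligands, LTB and TNF among them, are best known from leukocytes, while death receptors and LTBR are typical of epithelial cells.

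SETD7 itself fell from a signal of 369 with control siRNA to 90.1 with SET7/9 siRNA in MKN74 (log2 ratio -2.03, error 0.28) and from 197 to 51.2 in MKN45 (-1.95, error 0.28), although its second probe stayed at 0.24 and -0.23. Errors here are those of the scanner software's model of a spot and do not include variation between cultures. All 5 epithelial markers examined (EPCAM, CDH1, KRT8, KRT18 and KRT19) were well above background in both lines. Their summed Cy3 signal was 368965 in MKN74 and 371893 in MKN45. The 7 lymphocyte and leukocyte markers summed to 879 and 1003, with 2 of 7 genes well above background in MKN74 (CD3D and CD79A) and 3 in MKN45 (also PTPRC), while CD3E, MS4A1 and NKG7 were not well above background in either. Of the 4 myeloid markers on the array, CD14 and CD68 were well above background in both lines, as were 1 of 3 endothelial markers in MKN74 and 2 in MKN45, and 1 of 5 fibroblast markers (COL1A1) in both. Whether other cell types had a part in any value was not tested.

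Receptors were detected far more widely than ligands. With control siRNA, 15 of 25 receptor genes and 3 of 15 ligand genes had a probe well above background in MKN74, and 20 receptors and 6 ligands in MKN45. By probe, the shares were 19 of 49 (54.6% of all 34123 probes) and 30 of 49 (59.7% of all). The knockdown ratio of a probe was read on an array only if 50% or more of its spots were well above background in Cy3 or in Cy5. This held for 21 member probes of 20 genes in MKN74 and for 35 probes of 29 genes in MKN45, and 18 genes were kept on both. The 9 genes kept on neither array were FASLG, LTA, TNFSF8, TNFSF11, TNFSF13B, TNFSF14, TNFSF18, TNFRSF13B and TNFRSF17, 7 ligands and the B-cell receptors for TNFSF13 and TNFSF13B. Their Cy3 signals lay between 3.36 and 13.5 in MKN74 and between 3.12 and 10.1 in MKN45, and the dimmest Cy3 signals counted as well above background were 17.4 and 15.9.

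Most members lay near no change after SET7/9 knockdown. In MKN74 1 of the 21 kept probes, TNF, was at least 1.5-fold higher, where 3.78% of all 20674 kept probes were, and 0 were at least 1.5-fold lower (1.76% of all). In MKN45, 6 of the 35 kept probes were higher, those of TNF, LTB, TNFSF10, TNFRSF9, CD40 and TNFRSF4, where 4.81% of all 22830 kept probes were, and 1 of TNFRSF6B was lower (1.97% of all). For 1 of the 6, TNFSF10, the ratio lay on the cutoff, and for 4 (TNF, TNFRSF9, CD40 and TNFRSF4) the control signal was not well above background, a class of probe in which 38% of all 2452 kept MKN45 probes with Cy5 alone well above background were at least 1.5-fold higher, and 32.7% of 2025 in MKN74. With both channels well above background 0 of 19 member probes were higher in MKN74 (0.64% of all) and 2 of 30, LTB and TNFSF10, in MKN45 (0.814% of all), with 1 of 30 lower there, TNFRSF6B (1.62% of all). In MKN45, 22 of the 35 kept probes were above 0 (52.9% of all), and 17 of the 30 measured in both channels (49.7% of all). The median log2 ratio of the kept member probes was -0.022 in MKN74, where that of all kept probes was 0.0056, and 0.071 in MKN45, where it was 0.014. The members ranged from -0.58 to 0.87 in MKN74. In MKN45 their lowest value was -0.83 and their highest 1.59.

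**Figure D1:**
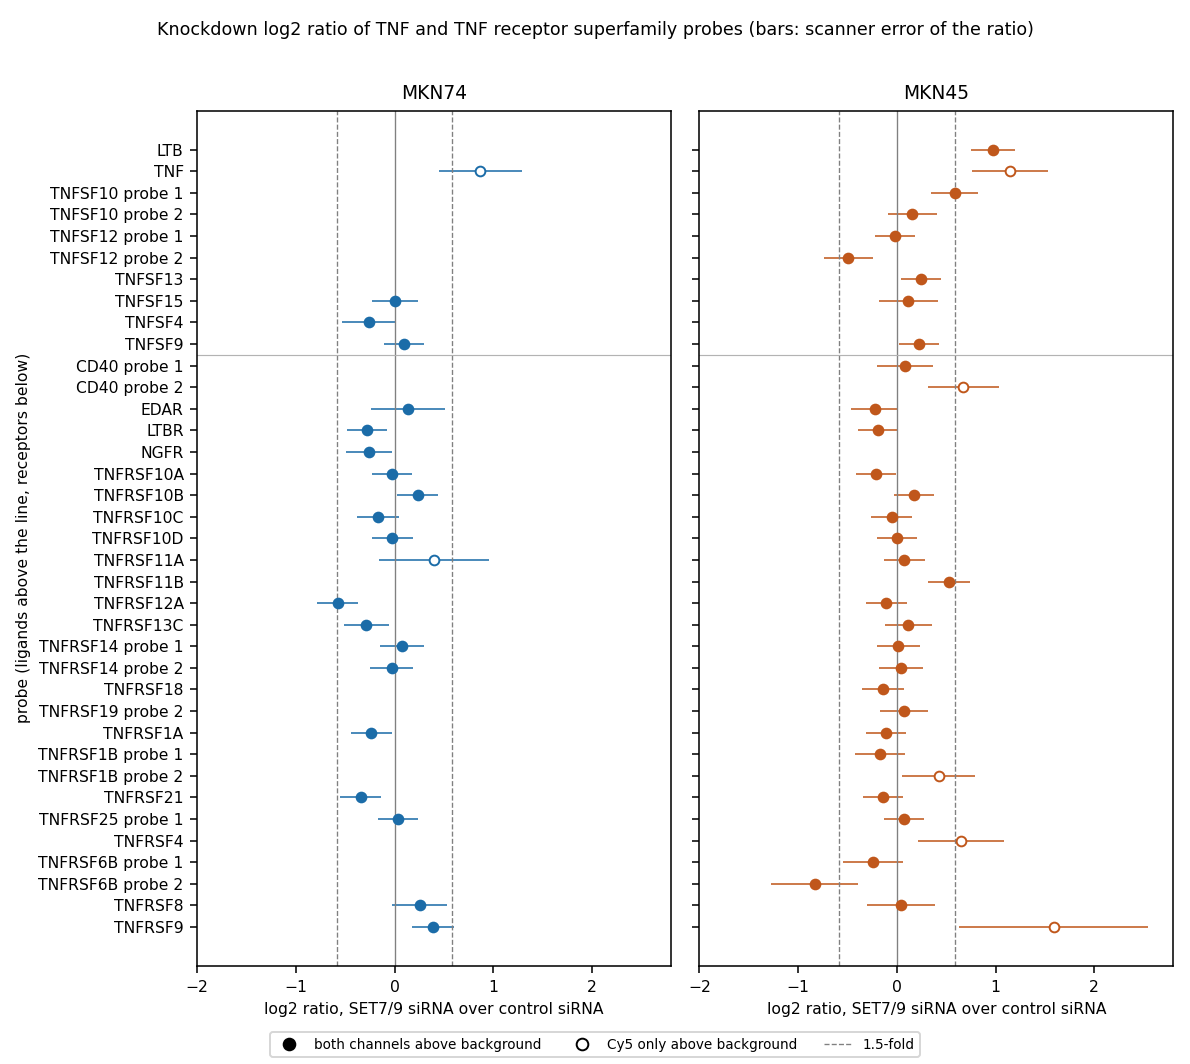
Log2 ratio of SET7/9 siRNA over control siRNA for each member probe kept on the array of MKN74 cells (left) or MKN45 cells (right). Bars are the scanner software's error of the ratio, open points have only the SET7/9 siRNA channel well above background, and dashed lines mark 1.5-fold. Filled points past a dashed line occur only in MKN45: LTB at 0.98, the first TNFSF10 probe at 0.59 and the second TNFRSF6B probe at -0.83.

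Among the ligands, LTB had the clearest rise. LTB is the membrane subunit of the lymphotoxin heterotrimer, the ligand of LTBR. At its single probe the signal in MKN45 was 353 with control siRNA and 695 with SET7/9 siRNA, both well above background, a log2 ratio of 0.98 (error 0.22, 1.97-fold). After normexp background correction, with 50 units added to both channels, and loess normalization, which pull dim ratios toward 0, it was still 0.82. Both MKN74 samples were too dim for a ratio to be read, at 3.44 and 7.64. LTB was thus measured in 1 cell line only, and whether it responds in the other was not measurable.

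TNF, the founding cytokine of the family, was the only member past 1.5-fold in both lines (0.75% of 19595 probes kept on both arrays were). That share is mostly of probes measured in both channels. TNF was kept through Cy5 alone on both arrays, a class in which 32.7% of probes in MKN74 and 38% in MKN45 were at least 1.5-fold higher. Its Cy3 signal was 12.5 in MKN74 and 12.6 in MKN45, not well above background in either. Its Cy5 signal was 22.8 and 27.9, well above background in both, giving log2 ratios of 0.87 (error 0.42) and 1.14 (error 0.38). As a bound, with Cy3 set to the dimmest signal that counts as measured and both channels scaled across arrays, TNF was at least 1.31-fold higher in MKN74 and at least 1.78-fold higher in MKN45. Of the 5 member probes in MKN45 with Cy5 alone well above background, 2, TNF and CD40, kept a bound of at least 1.5-fold, as did 4.89% of all such probes. For CD40 the bound equals the ratio itself, since its Cy3 signal lay above that dimmest signal. Such bounds are open to dye bias. Under normexp and loess the log2 ratios were 0.17 and 0.26, short of the cutoff in both. The 50 units added to each channel there exceed each of these TNF signals, so the fall toward 0 does not test the ratios.

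TNF and LTB lie beside each other on chromosome 6, and LTA, the soluble lymphotoxin, lies on the other side of TNF, with the 3 probes spanning 7.24 kb. LTA was not well above background in any of the 4 samples, at Cy3 signals of 4.54 and 5.80 and Cy5 signals of 6.92 and 7.98. The probes that gave the LTB and TNF values were 60 bases long and are shown by their first 30 bases, to fix what was hybridised. The LTB probe lay at chr6:31548335-31548394 on the minus strand and the TNF probe at chr6:31545837-31545896 on the plus strand of GRCh37.
LTB probe: ggaaattgattttgaacctgatgaaaataa
TNF probe: ggggtatcctgggggacccaatgtaggagc

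The 250 bases before the RefSeq start of both genes (GRCh38.p14) are shown because these are the neighbouring ligands past the cutoff. Capitals mark the NF-kB binding motif in LTB, 86 to 77 bases before the start, and the TATA box TATAAA in TNF, 29 to 24 bases before the start. The LTB window is chr6:31582426-31582675 on the minus strand and the TNF window chr6:31575315-31575564 on the plus strand.
LTB promoter: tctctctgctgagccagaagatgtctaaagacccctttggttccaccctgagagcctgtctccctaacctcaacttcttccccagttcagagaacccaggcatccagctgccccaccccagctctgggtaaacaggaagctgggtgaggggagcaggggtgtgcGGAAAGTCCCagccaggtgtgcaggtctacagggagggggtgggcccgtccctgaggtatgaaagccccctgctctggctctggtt
TNF promoter: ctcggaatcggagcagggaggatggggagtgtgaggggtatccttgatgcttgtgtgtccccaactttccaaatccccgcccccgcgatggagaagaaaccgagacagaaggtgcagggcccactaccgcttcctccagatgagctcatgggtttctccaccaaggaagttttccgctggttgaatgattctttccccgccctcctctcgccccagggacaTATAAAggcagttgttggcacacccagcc

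Of the 26 member genes with a RefSeq promoter window (250 bases before to 50 after the start, both strands searched), 8 held the NF-kB motif, namely LTA, LTB, TNFRSF14, TNFRSF19, TNFRSF9, TNFSF11, TNFSF13 and TNFSF14, on 10 of 33 windows, and 9.96% of all 35116 windows held it. TATAAA was found at 6 member genes, on 6 of 33 member windows, beside 3763 of all 35116 windows. The AP-1 site TGANTCA was found at 3 member genes, on 4 of 33 member windows, beside 2308 of all 35116 windows. These are matches of letters to a consensus. A window without an NF-kB match, that of TNF among them, may still hold a variant site. No factor binding was measured.

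TNFSF10 (TRAIL), the ligand of the death receptors TNFRSF10A and TNFRSF10B, was measured at 2 probes in MKN45 that lie 360 bases apart. At the first, printed 10 times, the mean log2 ratio was 0.59 (SD 0.20 over 10 spots), with 72.2 in Cy5 against 48.6 in Cy3. Its spots ranged from 0.19 to 0.83 around a median of 0.59, and all 10 were above 0. It fell short of the cutoff without LOWESS (0.57) and under normexp and loess (0.24). The second probe was at 0.16 (error 0.25), well short of the cutoff. In MKN74 Cy3 was well above background on 0 of the 10 spots and Cy5 on 2.

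The remaining kept ligands lay within 1.5-fold. TNFSF13 (APRIL), a B-cell survival ligand, was at 0.24 (error 0.21) in MKN45, from 636 to 753, and TNFSF9, the ligand of TNFRSF9, at 0.096 in MKN74 and 0.22 in MKN45, with errors of 0.20 and 0.21. TNFSF15, a ligand of TNFRSF25, was at -0.00043 and 0.12. TNFSF4, the ligand of TNFRSF4, was measured in MKN74 only, at -0.26 (error 0.28). TNFSF12 (TWEAK) was measured in MKN45 only and its probes disagreed, with -0.021 (error 0.20) at the brighter one and -0.49 (error 0.25) at the other. None of these ratios exceeded 2 errors.

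Among the receptors, TNFRSF9 (4-1BB), a costimulatory receptor, had a log2 ratio of 1.59 (error 0.95) in MKN45. Its Cy3 signal there was 4.05, not well above background, against 12.2 in Cy5, and no bound above 1-fold was reached. Under normexp and loess the ratio was 0.10. Both channels were measured in MKN74, where the signal went from 228 to 299, a log2 ratio of 0.39 (error 0.21) that lay short of the cutoff. Its probe lay at chr1:7980723-7980782 on the minus strand of GRCh37. Its promoter window (chr1:7940840-7941089 of GRCh38.p14, minus strand) is shown for comparison with LTB, because, of the members past the cutoff that have a window, it alone held both the NF-kB motif and the AP-1 site. The first run of capitals holds overlapping matches of the NF-kB motif, 74 to 65 and 73 to 64 bases before the start, and the second is the AP-1 site, 44 to 38 bases before it. TNFSF14, which was kept on neither array, held both motifs as well. Whether a motif had a part in any ratio was not tested.
TNFRSF9 probe: ttcccccaacacacgttcttttctaaatgc
TNFRSF9 promoter: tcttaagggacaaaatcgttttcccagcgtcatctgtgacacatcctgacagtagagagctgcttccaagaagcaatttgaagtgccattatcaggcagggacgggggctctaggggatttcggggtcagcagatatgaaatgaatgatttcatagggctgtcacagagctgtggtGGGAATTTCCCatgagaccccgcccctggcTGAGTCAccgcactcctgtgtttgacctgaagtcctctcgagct

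TNFRSF11B (osteoprotegerin), the soluble decoy of TNFSF11 and TNFSF10, was close to the cutoff in MKN45. The mean of its 10 spots was 0.53 (SD 0.11), each spot between 0.40 and 0.76, with 185 in Cy5 against 128 in Cy3. Under normexp and loess it was 0.37. In MKN74 the probe was not well above background in either channel.

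TNFRSF12A (FN14), the receptor of TNFSF12, lay just inside the cutoff on the other side in MKN74. Its signal there was 50995 with control siRNA and 34173 with SET7/9 siRNA, a log2 ratio of -0.58 (error 0.21), where the cutoff is at 0.585. Without LOWESS dye normalization the ratio was -0.10, and under normexp and loess -0.38, so that the size of the fall moved with the intensity-dependent dye correction. In MKN45, with 2845 and 2645, it was -0.11 (error 0.20).

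**Figure D2:**
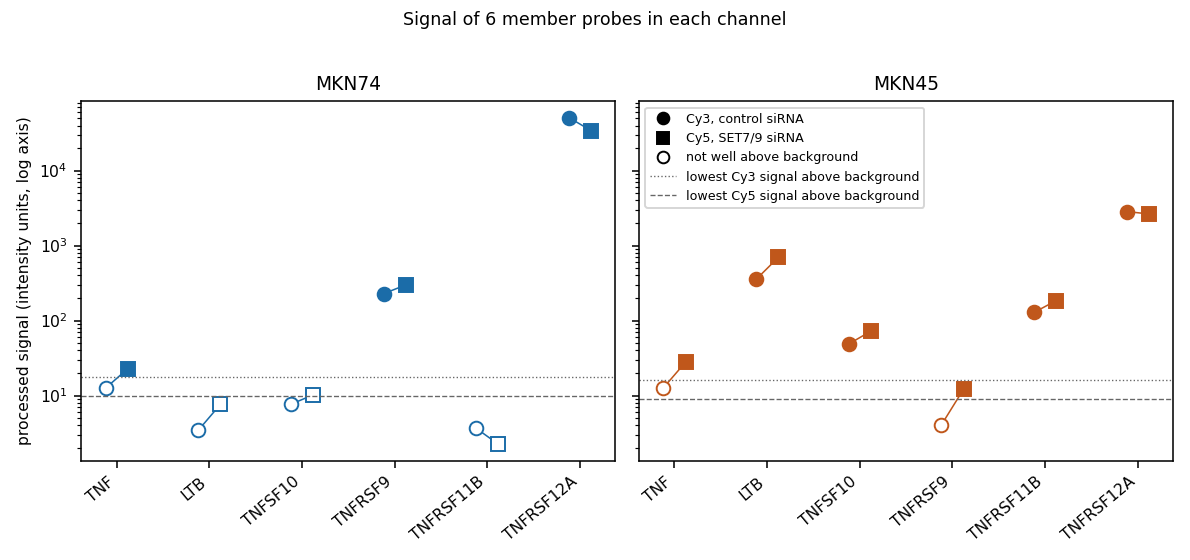
Processed signal, on a log axis in intensity units, of 6 member probes (the first probe of TNFSF10) in Cy3 (control siRNA, circles) and Cy5 (SET7/9 siRNA, squares) on the array of each cell line. Open symbols were not well above background and horizontal lines give the lowest signal well above background in each channel. LTB, TNFSF10 and TNFRSF11B were well above background in MKN45 only, TNFRSF12A in both lines, and TNF in Cy5 only.

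CD40, the receptor of CD40LG on antigen-presenting and some epithelial cells, was measured in MKN45 only. Its first probe, with 9 spots left, was at 0.080 (SD 0.26), with spots from -0.42 to 0.39. Its second probe, 2301 bases away, was at 0.67 (error 0.36), with Cy3 at 17.5 not well above background and Cy5 at 27.9. That Cy3 signal exceeded the dimmest one counted as measured. The bound of 1.59-fold is therefore the ratio itself and no lower limit. The probes of CD40 therefore gave different calls. TNFRSF4 (OX40), a T-cell costimulator, was at 0.65 (error 0.44) in MKN45 with Cy3 at 12.1 and Cy5 at 19.0, and at least 1.19-fold higher.

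TNFRSF6B, the soluble decoy of FASLG, was the only member past the cutoff downward. Its second probe fell from 19.3 to 10.8 in MKN45, a log2 ratio of -0.83 (error 0.44), and its first probe, 522 bases away, was at -0.24 (error 0.30). Under normexp and loess the second probe was at -0.14. The gene shares sequence with a readthrough transcript from RTEL1, and probes in the shared part cannot tell the transcripts apart.

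The death receptors and the receptors of the lymphotoxins changed little. TNFRSF10B (DR5) was at 0.23 in MKN74 and 0.18 in MKN45, and TNFRSF10A (DR4) at -0.029 and -0.21, with errors of 0.20 or 0.21. The decoys TNFRSF10C and TNFRSF10D were at -0.17 and -0.022 in MKN74 and at -0.052 and 0.0021 in MKN45. TNFRSF1A, the main TNF receptor, was at -0.24 (SD 0.025 over 9 spots) in MKN74 and -0.11 (SD 0.055 over 10 spots) in MKN45. All of its spots lay below 0, by less than 1.5-fold. LTBR, the LTB receptor, was at -0.28 (error 0.21) and -0.19 (error 0.20), from 3978 to 3272 and from 1493 to 1308.

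TNFRSF21 (DR6) was at -0.35 (error 0.21) in MKN74 and at -0.14 (error 0.20) in MKN45, where it turned to 0.15 without LOWESS. TNFRSF25 (DR3) was at 0.030 and 0.071, and TNFRSF14 (HVEM) lay between -0.032 and 0.071 over its 2 probes in both lines. TNFRSF8 (CD30) was at 0.25 (error 0.28) and 0.043 (error 0.35). TNFRSF13C, the BAFF receptor, was at -0.29 (error 0.23) and 0.12 (error 0.24), and EDAR, the ectodysplasin receptor, at 0.13 (SD 0.31 over 10 spots) and -0.22 (SD 0.16 over 9 spots). TNFRSF13C and EDAR thus had opposite signs in the lines, both within 1.5-fold.

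The other kept receptors were measured in 1 line. NGFR, the low-affinity neurotrophin receptor, was at -0.26 (error 0.23) in MKN74. In MKN45, TNFRSF18 (GITR) was at -0.14 (error 0.21), TNFRSF19 (TROY) at 0.076 (error 0.24) and TNFRSF1B, the second TNF receptor, at -0.17 (error 0.25) and 0.43 (error 0.37) at its 2 probes. TNFRSF11A (RANK) was at 0.075 (error 0.21) in MKN45, while in MKN74 only Cy5 was well above background and its ratio was 0.40 (error 0.56).

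**Figure D3:**
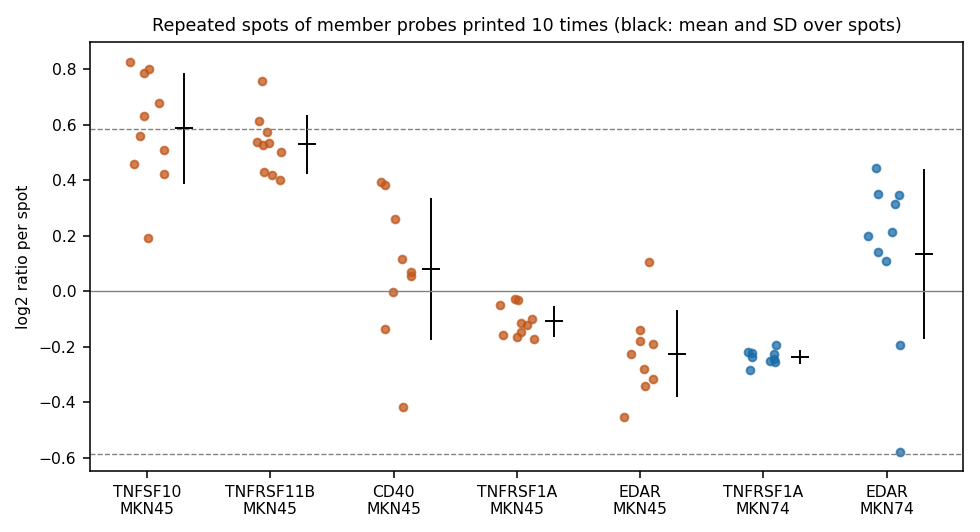
Log2 ratio of SET7/9 siRNA over control siRNA at each spot of the member probes printed 10 times and kept, by gene and cell line, with the mean and SD over spots in black and 1.5-fold as dashed lines. All TNFSF10 and TNFRSF11B spots in MKN45 lay above 0, those of TNFRSF1A lay below 0 in both lines, and those of CD40 and EDAR fell on both sides.

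Set against its own error, a ratio exceeded 2 errors for 2 member probes in MKN74, TNF and TNFRSF12A, where 4.34% of all kept probes did, and for 4 in MKN45, LTB, TNF, TNFRSF11B and the first TNFSF10 probe, where 4.96% did. For 12 of the 21 probes in MKN74 and 22 of the 35 in MKN45 the ratio was within 1 error of 0. The share over all kept probes was not computed for these counts, and nothing is read from them. With 19 member probes kept on both arrays, 14 had the same sign in both lines, and 65.5% of all 19595 such probes did, and 0 passed 1.5-fold in opposite directions (0.0868% of all). With both arrays taken as replicates of the knockdown, limma called 0 of 19595 probes and 0 of the 19 member probes at a Benjamini-Hochberg adjusted p of 0.05. At an unadjusted p under 0.05 it gave 2 members, TNF (higher on both arrays, adjusted p = 0.327 in limma) and LTBR (lower on both by the ratios above, adjusted p = 0.377 in limma), and 13.1% of all probes. TNF was kept through Cy5 alone on both arrays, where the filter itself favours a higher ratio. Of all such probes 32.7% in MKN74 and 38% in MKN45 were at least 1.5-fold higher. The p of TNF and its ratios over 2 errors are therefore not read as support for a rise. The fit has 1 residual degree of freedom and treats different cell lines as replicates.

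Control cells were compared to see which ligands and receptors each line expressed before knockdown. Control level was the log2 Cy3 signal minus the 75th percentile of the array, and each probe was compared with itself across the lines. On the 16 member probes with Cy3 well above background in both lines, 5 were at least 2-fold higher in MKN45 (16.9% of all 17414 such probes) and 3 at least 2-fold lower (17.5%). Their median difference was 0.40, and that of all such probes 0.027. With both channels scaled across arrays (Aquantile) these medians were 0.17 and -0.13, and after normexp 0.44 and 0.10. Counting also the probes measured in 1 line only, 18 of 33 were at least 2-fold higher in MKN45 (26.2% of all 21610) and 6 lower (18.9%), but 13 of the 18 are set against an MKN74 signal that was not well above background, and 91.5% of all 2962 probes measured in MKN45 only were 2-fold higher there on this scale. Nothing is read from these larger counts. The levels rest on 1 array per line, and array and line cannot be told apart.

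Many members passed the detection limit in 1 line only. Cy3 was well above background in MKN45 only for 14 of the 49 member probes (8.68% of all 34123 probes), from 11 genes, and in MKN74 only for 3 (3.62%), while 16 were well above background in both (51% of all). Bounds were set as for the knockdown, on both channels scaled across arrays, and reached 2-fold at 6 of the 14 probes measured in MKN45 only (44.2% of all such probes) and at 3 of the 3 measured in MKN74 only (96.8%). TNFSF12 was at 3.92 in MKN74 and 1714 in MKN45 at its brighter probe, at least 85.6-fold higher, and at least 1.88-fold at the other. TNFSF13 was at 4.17 and 636, at least 32.0-fold higher, and LTB at 3.44 and 353, at least 17.3-fold higher. TNFSF10 was at least 1.89-fold and 1.59-fold higher in MKN45 at its 2 probes. TNFSF4 went the other way, with 39.4 in MKN74 and 3.55 in MKN45, and was at least 3.84-fold lower in MKN45.

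Of the receptors detected in MKN45 only, TNFRSF11A was at least 5.81-fold higher there than in MKN74, with Cy3 signals of 132 and 10.3, and TNFRSF11B at least 5.71-fold, with 128 and 3.65. TNFRSF18 was at least 4.05-fold higher, TNFRSF19 at least 1.95-fold, TNFRSF1B at least 1.67-fold and CD40 at least 1.15-fold. The first TNFRSF6B probe was at least 1.18-fold higher, and its second, 0.90 higher on the log2 scale but at -0.082 with channels scaled across arrays, reached no bound above 1-fold. The receptors detected in MKN74 only were TNFRSF9, with 228 against 4.05 and at least 18.4-fold lower in MKN45, and NGFR, with 61.5 against 3.27 and at least 5.73-fold lower.

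Of the receptors measured in both lines, TNFRSF12A had the largest difference, -3.98 (error 0.20), being 15.8-fold lower in MKN45. TNFRSF21 (3.02, error 0.20) and TNFRSF10D (2.86, error 0.20) were 8.10-fold and 7.24-fold higher in MKN45. TNFRSF10C (1.75), EDAR (1.56) and TNFRSF25 (1.03) were also over 2-fold higher, EDAR falling under 2-fold under both other scalings (0.83 and 0.80) and TNFRSF25 under normexp alone (0.91). EDAR was at the detection limit in MKN74, with 50% of its spots well above background in Cy3 at a signal of 20.9. TNFRSF1A (-1.35, error 0.20) and LTBR (-1.23, error 0.20) were lower in MKN45 and remained over 2-fold lower under both other scalings. TNFRSF10A, TNFRSF10B, TNFRSF13C, TNFRSF14, TNFRSF8, TNFSF9 and TNFSF15 lay within 2-fold on the main scale, with TNFRSF8, TNFRSF13C, TNFSF15 and TNFRSF14 changing sign under at least 1 of those scalings. The receptor and ligand of a pair did not always go together, since MKN45 had the higher TNFSF12 level and MKN74 the higher level of its receptor TNFRSF12A.

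**Figure D4:**
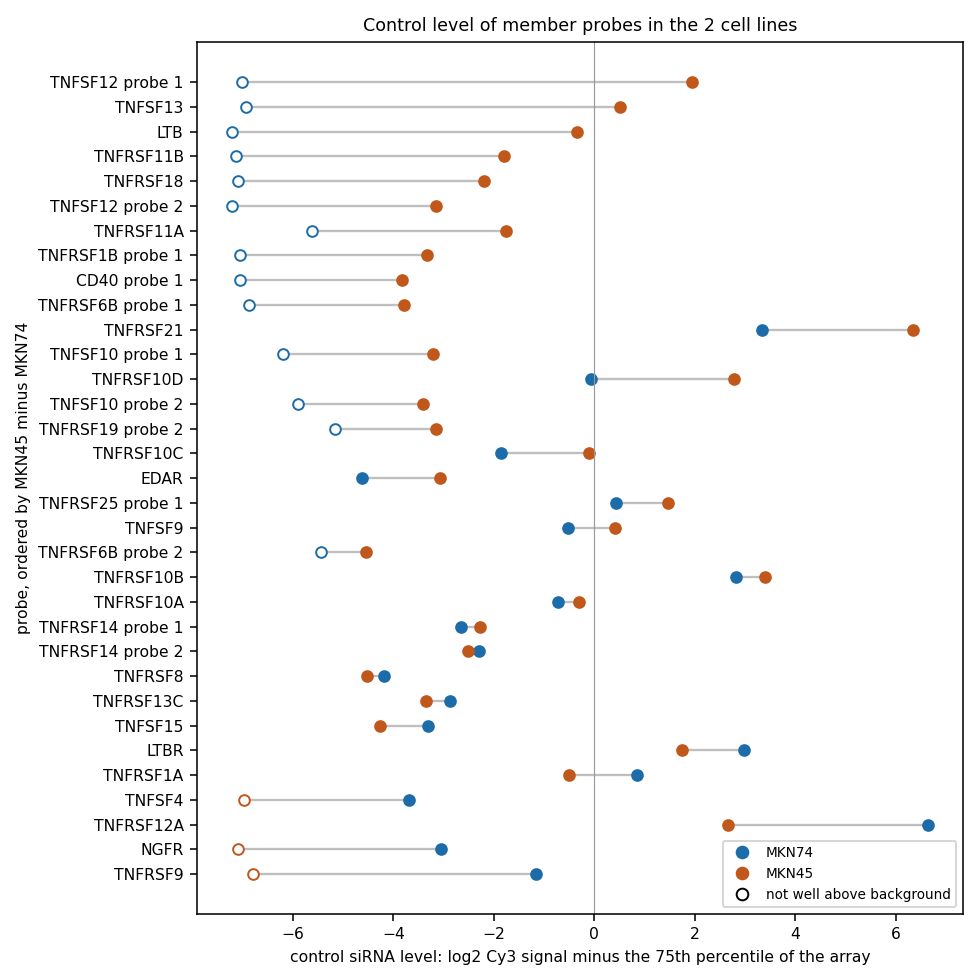
Control siRNA level (log2 Cy3 signal minus the array's 75th percentile) of the 33 member probes well above background in Cy3 in at least 1 line, in MKN74 (blue) and MKN45 (orange), ordered by the difference. Open points were not well above background, so the distance to an open point is not a measured fold. TNFSF12, TNFSF13 and LTB are at the top with open MKN74 points, and TNFRSF9, NGFR and TNFRSF12A at the bottom.

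Many of these genes are neighbours. With probes up to 1000 kb apart, 22 of the 40 genes fell into 9 clusters on GRCh37. TNFSF12 and TNFSF13, whose probes span 10.3 kb on chromosome 17, were both detected in the control cells of MKN45 only. A readthrough transcript joins the pair, and probes in the shared part cannot separate it from the single genes. TNFRSF1A and LTBR, on chromosome 12 with probes spanning 62.1 kb, were both over 2-fold lower in MKN45. The 4 TRAIL receptors on chromosome 8, TNFRSF10A to TNFRSF10D, were all higher in MKN45, by 0.42, 0.58, 1.75 and 2.86, and kept that sign under both other scalings. These 4 genes are close in sequence, and how far each probe reads its neighbours was not tested. Neighbours also differed: TNFRSF18 was detected in MKN45 and TNFRSF4, 6.96 kb across both probes on chromosome 1, in neither control sample, and LTB was detected in MKN45 beside TNF and LTA, which were not.

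The genes that carry the signal of these receptors were measured nearly throughout, and few of their probes passed 1.5-fold. Of 50 genes, among them TRAF and TRADD adaptors, RIPK kinases, caspases, ubiquitin enzymes, IKK subunits and NF-kB proteins, 48 had a kept probe in MKN74 and 49 in MKN45, on 70 and 75 of 78 probes. In MKN74 1 probe was at least 1.5-fold higher and 0 lower, beside 3.78% and 1.76% of all kept probes. In MKN45 2 were higher and 2 lower, beside 4.81% and 1.97%. All 70 kept probes in MKN74 and 74 of the 75 in MKN45 had both channels well above background. Among these, 1 was higher and 0 lower in MKN74, beside 0.64% and 1.45% of all such probes. In MKN45 1 was higher and 2 lower, beside 0.814% and 1.62%. The median log2 ratio was -0.014 and 0.00053, beside 0.0056 and 0.014 for all kept probes.

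BIRC3 (cIAP2), a ubiquitin ligase of the receptor complex and an NF-kB target, was the higher one in MKN74, from 145 to 284 with a log2 ratio of 0.97 (error 0.22). In MKN45 it was at 0.36 (error 0.21). TNFAIP3 (A20), which removes ubiquitin and limits NF-kB signalling, was at 0.55 (error 0.23) in MKN74 and passed the cutoff in MKN45 with 0.60 (error 0.27), from 29.4 to 44.7. RIPK3, a kinase of necroptosis, was at -0.74 (error 0.30) in MKN45 at 1 probe and at -0.10 (error 0.21) at the other. Under normexp and loess BIRC3 was at 0.74 in MKN74. In MKN45 TNFAIP3 was then at 0.20 and the lower RIPK3 probe at -0.28, both dim and short of the cutoff. The second higher call in MKN45 was TAB3, named after its values were seen, with a log2 ratio of 1.74 (error 0.74) on a Cy3 signal that was not well above background, while its other probes were at -0.10 and 0.14. For RIPK3 and TAB3 the probes of a gene thus disagreed, as they did for CD40, TNFRSF6B and TNFSF10.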

How the data were processed

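RNA of MKN74 and MKN45 cells was measured on 1 two-colour Agilent array per line. The authors deposited Agilent Feature Extraction 10.7.3.1 output, in which each spot has its intensity per channel, background-subtracted and dye-normalized (linear and LOWESS). The authors' files further hold, as deposited, the log10 ratio (Cy5 to Cy3) of the spot, the error of that ratio and its p-value under an error model. A second deposited file holds log2 ratios per probe, to 2 decimals. Names and GRCh37 probe coordinates are those of the array design; exon annotation was not analysed here. Of 49 member probes, 47 matched the RefSeq gene table (GRCh38.p14), and 26 of 40 genes had a promoter window.

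From these, ratios were put on the log2 scale, outlier spots were left out and the others averaged by probe. There were 0 saturated gene spots. The cutoff was 1.5-fold. In the normexp runs, for ratios and for control levels, 50 intensity units were added to both channels, which shrinks dim differences. For probes near or below 50 units, a value short of a cutoff in these runs therefore does not test the call. A bound was computed for probes measured in 1 channel only, after Aquantile scaling (limma 3.58.1, R 4.3.3), with the dim channel set to the higher of its own signal and the lowest signal well above background. The limma fit used all probes kept on both arrays, with Benjamini-Hochberg adjustment, and was tested on simulated data. Members with a kept probe were named, with those past the cutoff, detected in 1 control only or with several probes in full, and genes of the signalling list past the cutoff with both channels well above background. Members, signalling list, markers and motifs were chosen with earlier results of these data known. Values of 1 gene of the signalling list and 1 marker, which stay in the counts, are not reported here. Tables were made in Python 3.11.15.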

Additional observations from a re-analysis of the deposited data

How the results depend on the processing

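No single member value past the cutoff changed sign under any alternative run. Shares of all probes are given in brackets. In MKN74 the count of higher member probes, 1 (3.78%), became 0 under normexp and loess (0.208%) and with both channels well above background (0.64%). It was also 0 in the deposited table (0.688%), at 2-fold (1.37%) and with an error model p under 0.01 (0.605%). With no filter it became 7 (4.57%). The count of lower probes, 0 (1.76%), became 4 with no filter (6.35%) and 1 in the deposited table (1.6%). Values there have 2 decimals and were called from 0.58 on, which takes in TNFRSF12A at -0.58. In MKN45 the 6 higher probes (4.81%) became 1, LTB, under normexp and loess (0.118%), and 4 without LOWESS (3.82%). They became 2 with both channels well above background (0.814%), in the deposited table (0.862%), at 2-fold (1.91%) and with an error model p under 0.01 (0.837%). The 1 lower probe (1.97%) became 0 under normexp and loess (0.0788%) and at 2-fold (0.758%). It was also 0 with an error model p under 0.01 (1.04%) and with 1 probe per gene (1.89%). With no filter it became 4 (8.17%). limma called 1 member, LTBR, under normexp and loess (adjusted p = 0.0203 in limma, against 0.377), where 7.95% of all probes passed. The median in MKN74 turned from -0.022 to 0.029 under normexp and loess. Of the control levels, 15 to 20 member probes were higher in MKN45 over the scalings (17.3% to 28.9% of all). Between 4 and 9 were lower (12% to 22.3% of all). These counts include probes measured in 1 line only, and, as above, nothing is read from them. Each ratio already pairs the knockdown and control RNA of 1 cell line on 1 array, and the limma fit used these ratios. With 1 array per cell line there was no second pair within a line. Leaving out an array leaves no residual degree of freedom.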

Other observations

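Relatives named outside the TNFSF and TNFRSF scheme were also on the array, on 11 probes of 7 genes. CD70, the ligand of CD27, had Cy3 signals of 9.63 in MKN74, not well above background, and 1753 in MKN45, where its log2 ratio after knockdown was -0.017. FAS, the death receptor of FASLG, was not well above background in the MKN74 control at any of its 3 probes, and in MKN45 their Cy3 signals were 52.4, 170 and 283 with log2 ratios between 0.11 and 0.35. RELT was measured in both channels of both lines, at 0.21 and 0.030. In MKN74 3 probes of EDA and FAS were at least 1.5-fold higher, with bounds of at least 1.05-fold, 1.44-fold and 1.03-fold, a class of probe in which 32.7% of all 2025 were past the cutoff in MKN74, and in MKN45 1 of CD27 (1.41, error 0.98, with no bound above 1-fold), all with Cy3 not well above background; these genes were named after their values were seen. Both EDA probes were measured in both channels in MKN45 and lay on the other side of 0 there, at -0.31 (error 0.22) and -0.21 (error 0.24). CD40LG and EDA2R were not well above background in any sample.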
